A study of Mus musculus with 14 samples.

Results

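Group 2 innate lymphoid cells (ILC2s) are tissue lymphocytes that answer alarmins such as IL-33 with type 2 cytokines, and IL-9 is one of the cytokines they make and also respond to. The 8 genes described here are Il9, its receptor chain Il9r, the kinases Jak1 and Jak3, and the transcription factors Stat3, Stat5a, Stat5b and Stat6. They were chosen by symbol as the IL-9 signal and its path to the nucleus, and all 8 were found among the 53278 genes of the deposited count and TPM tables. In the stimulation experiment, lung ILC2s of female B6 mice were left unstimulated (n = 4) or given IL-33 at 20 ng/mL for 24 h (n = 4). In the other experiment, ILC2s of 3 Control IL7RaCre and 3 Blimp-1 IL7RaCre female mice, called Control and Blimp-1-deficient below, were cultured for 72 h with IL-33 and IL-25 at 20 ng/mL each, and the methods also name IL-2 in this culture. The general culture methods use medium with IL-2 at 20 ng/mL, but the RNA-seq methods do not name IL-2 for the 24 h culture. Whether the cells of the stimulation experiment had IL-2 is therefore unclear. In both experiments the cells were sorted from whole lung as live, lineage-, CD90.2+, CD3- cells. The series design describes individual mice, while figure legends of the study describe sorts of pooled animals, so that a library may hold cells of more than 1 mouse. Both genotypes carry the Cre name in their labels. Because lymphoid cells in general use Il7ra, which drives this Cre, the deletion was not limited to ILC2s. The submitters describe the unstimulated cells as cultured without IL-33 in one place and as ex vivo in another, and their labels give no culture time. If these cells were not cultured, IL-33, time in culture and any IL-2 in the medium cannot be told apart.

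IL-9 binds a receptor made of the IL-9 receptor alpha chain, encoded by Il9r, and the common gamma chain, encoded by Il2rg and shared with the receptors of IL-2, IL-4, IL-7, IL-15 and IL-21. JAK1 is bound to the alpha chain and JAK3 to the common gamma chain. When the chains are brought together, the kinases phosphorylate the receptor and STAT proteins, STAT3 and STAT5 among them for IL-9, while STAT6 is the main STAT of IL-4 and IL-13. This step changes the phosphorylation and not the transcript of a STAT, so that the RNA levels given here describe how much of each component was transcribed, and not whether the pathway was active. Blimp-1, encoded by Prdm1, is a transcriptional repressor.

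The promoter of Il9, the member with the widest range of levels, is shown first, since JAK-STAT signalling and the factors of activated lymphocytes act through such sequences. Il9 (ENSMUSG00000021538.3) is a protein-coding gene on the minus strand of chromosome 13, from 56479277 to 56482246 in GRCm38. The 250 bases before its RefSeq start, chr13:56482258-56482507 on the minus strand of GRCm38.p6, are given 5′ to 3′, with every match to a searched motif in capitals.
Il9: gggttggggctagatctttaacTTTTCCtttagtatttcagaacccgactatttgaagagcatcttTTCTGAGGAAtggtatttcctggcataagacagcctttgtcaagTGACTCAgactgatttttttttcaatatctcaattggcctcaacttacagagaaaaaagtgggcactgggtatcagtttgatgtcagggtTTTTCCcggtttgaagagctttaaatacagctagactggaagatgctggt
The window held 1 match to the STAT motif with a 4-base gap, TTCNNNNGAA, which lies 184 to 175 bases before the start and is the spacing that STAT6 prefers. It held no match to the 3-base form TTCNNNGAA of STAT3 and STAT5. A match to the AP-1 motif TGANTCA lay 140 to 134 bases before the start, and the NFAT-type core GGAAAA (on the other strand TTTTCC) was found at 228 to 223 and at 50 to 45. No match to GAAAGTG, the core of the Blimp-1 motif, was found. Over the 32817 RefSeq windows of the same length, both strands searched, at least 1 match was present in 5.85% for the 4-base STAT form, 7.01% for the 3-base form, 6.75% for AP-1, 20.4% for the NFAT-type core and 4.01% for the Blimp-1 core.

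Among the other members, the Blimp-1 core was found 2 times before Stat6 and 1 time before a start of Stat5a, and no motif of these was found in the windows of Il9r, Jak1, Stat3 and Stat5b. The window of Stat6 (chromosome 10, plus strand, gene from 127642986 to 127660957 in GRCm38) is shown because Stat6 is the member with the lowest unadjusted p in the Blimp-1 comparison below. It covers chr10:127642736-127642985 of GRCm38.p6, and the capitals mark both copies of CACTTTC, the Blimp-1 core read on the other strand at 79 to 73 and 52 to 46 bases before the start, and 1 NFAT-type core further upstream.
Stat6: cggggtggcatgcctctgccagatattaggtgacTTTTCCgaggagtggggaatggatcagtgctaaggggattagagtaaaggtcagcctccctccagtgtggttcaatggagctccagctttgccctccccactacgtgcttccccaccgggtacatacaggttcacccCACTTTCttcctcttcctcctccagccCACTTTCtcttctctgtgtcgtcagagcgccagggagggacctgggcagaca
A match to these letters is a description of the sequence, and binding was not measured here.

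Before the results, 1 library in each experiment stood apart. IL-33 stimulated replicate 3 had 10470125 counts, 4.12% of them on the 7 loci named next, where the other libraries of that experiment had 21939818 to 32849428. Control replicate 2 had 13570188 counts, of which 76.8% fell on 7 ribosomal, mitochondrial or repeat-like loci, against 0.26% to 0.94% in the other 5 libraries of that experiment, which had 60715362 to 76448945 counts. The comparisons of the 8 genes and the counts of the gene lists are therefore given with and without these libraries. Prdm1, the deleted gene, had 75.2, 92.8 and 74.0 CPM (normalized counts per 1000000) in Control libraries. Blimp-1-deficient libraries had 14.6, 11.5 and 11.4 CPM, so the difference on the log2 scale was -2.68 (edgeR, adjusted p = 0.00441). The fold change stayed between -2.80 and -2.57 when 1 library was left out, but the call was kept in only 9 of 16 alternatives. After IL-33 Prdm1 went from 79.9 ± 14.9 to 59.1 ± 19.2 CPM and did not pass (log2 fold change -0.43, adjusted p = 0.213, and -0.25 without replicate 3). All 15 ILC2 markers of a fixed list, among them Gata3, Rora and Il1rl1, had at least 1 CPM in every library. Their sum went from 9430 to 10336 CPM before IL-33 to 6629 to 9030 CPM after it, and was 6630 to 8227 CPM in Controls and 5967 to 6412 CPM in Blimp-1-deficient ILC2s, so that it was lower, as Il9r was, in the second group of both experiments. Genes of the list did not all move with the sum. Il2ra went from a mean of 1687 to 2516 CPM after IL-33, and from 2083 CPM in Controls to 1337 CPM without Blimp-1. Il7r went from 131 to 94.1 CPM and from 55.7 to 88.1 CPM in the same comparisons. The genotype differences of both genes did not pass with all libraries. The part of this list in the results was not tested. Since the libraries hold RNA of whole sorted populations, fewer cells of a type and less RNA per cell cannot be told apart.

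Il9 was all but undetected in unstimulated ILC2s and was among the most abundant transcripts after IL-33. It had 2 counts in unstimulated replicate 1 and 0 counts in the other three, which allows at most 0.127 CPM in the shallowest of these libraries, the level of 3 counts. After IL-33 it had 104536, 122010, 35541 and 150111 counts, or 3435, 3953, 3501 and 5313 CPM, with a mean of 4050 ± 873 CPM (SD, n = 4). The groups did not overlap, and the mean was at least 31773-fold higher than the level of 3 counts in the shallowest unstimulated library. The adjusted p of edgeR's quasi-likelihood test was 1.63e-06, it was 1.91e-09 without IL-33 stimulated replicate 3, and it lay between 2.38e-68 and 0.000171 over the 17 alternative settings. This replicate, which was low for most members, was not low for Il9 at 3501 CPM.

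The level per transcript length gave Il9 place 3 of the 22137 genes with a median TPM above 0 after IL-33, at a median of 19741 TPM. In each stimulated library Il9 alone held between 1.71% and 2.64% of the TPM. The other type 2 cytokines started from measurable levels. Il13 went from 143 ± 65.8 to 14698 ± 3935 CPM (log2 fold change 6.68, adjusted p = 3.80e-05), Il5 from 544 ± 127 to 17146 ± 2962 CPM (4.98, adjusted p = 1.12e-05) and Il4 from 3.39 ± 0.305 to 10.9 ± 1.64 CPM (1.68, adjusted p = 0.000271). Without replicate 3 the log2 fold changes were 6.85 for Il13, 5.06 for Il5 and 1.70 for Il4. Within a stimulated library, the TPM of Il9 was 0.641 ± 0.148 times that of Il13 (SD, n = 4).

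In Blimp-1-deficient ILC2s at 72 h, Il9 stood above Control in every library. The Control values were 634, 156 and 456 CPM, and the Blimp-1-deficient values were 1224, 1223 and 1631 CPM. The groups did not overlap, and the lowest value is that of Control replicate 2, with 641 counts. The means were 415 ± 242 and 1359 ± 235 CPM (SD, n = 3), and the log2 fold change was 1.71 (standard error 0.48, 95% interval 0.54 to 2.87). With all 6 libraries this did not pass the threshold (adjusted p = 0.223). Without Control replicate 2 the log2 fold change was 1.33 and Il9 rose past it (standard error 0.18, adjusted p = 0.00568). Over 16 alternatives the fold change was above 0 in all and passed the threshold in 3, with adjusted p between 0.00568 and 0.705. Its size was 1.33 to 2.16 in the count-based alternatives and 3.69 and 3.70 with limma on log2(TPM + 1) and log2(TPM + 0.1), fits in which the median gene stood at 1.28 and 1.69.

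None of the type 2 cytokines passed in this comparison with all libraries, and a difference between Il9 and the others was not tested. Il13 had 6111 ± 2026 CPM in Controls and 5484 ± 957 CPM in Blimp-1-deficient ILC2s (log2 fold change -0.16, adjusted p = 0.912), and Il5 had 6053 ± 2452 and 5915 ± 1235 CPM (-0.03, adjusted p = 0.994), while Il4 had 13.2 ± 1.16 and 13.4 ± 1.10 CPM (0.02, adjusted p = 0.986). Neither Il13 nor Il5 passed when Control replicate 2 was left out, at -0.40 for Il13 (adjusted p = 0.116) and -0.33 for Il5 (adjusted p = 0.233). The TPM of Il9 relative to that of Il13 in the same library was 0.199, 0.0930 and 0.139 in Controls and 0.625, 0.471 and 0.590 in Blimp-1-deficient ILC2s. These ratios do not use the library size, and the groups did not overlap. They are given as a description without a test. Against Il5 the ratio was 0.186 ± 0.0513 in Controls and 0.669 ± 0.107 in Blimp-1-deficient ILC2s (SD, n = 3). In these cells Il9 took place 6 of 24555 genes by median TPM, and place 21 of 23275 in Controls.

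**Figure D1:**
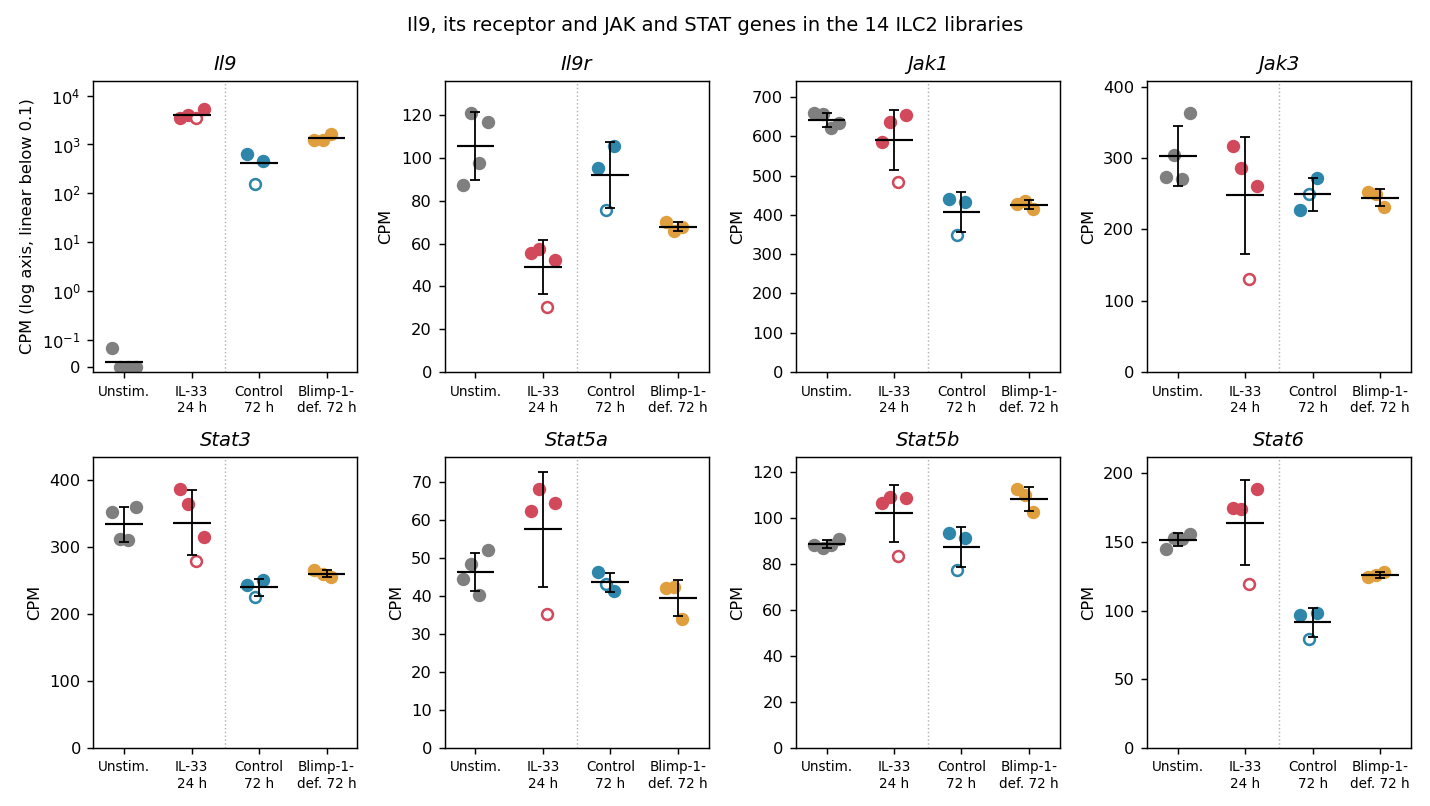
Normalized counts per 1000000 (CPM) of each gene in every library, with bars at the mean and SD (for Il9 the mean only, on a log axis that is linear below 0.1). Open circles are IL-33 stimulated replicate 3 and Control replicate 2, and the dotted line parts the experiments, which were normalized separately. Il9 lies at or near 0 before IL-33 and between 3435 and 5313 CPM after it, while Il9r lies lower after IL-33 and in Blimp-1-deficient ILC2s.

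The receptor chain moved the other way. Il9r (ENSMUSG00000020279.10, chromosome 11, 32187541 to 32200279, minus strand) had 87.3, 120.9, 97.6 and 116.9 CPM in unstimulated ILC2s and 55.6, 57.7, 30.2 and 52.6 CPM after IL-33. Every stimulated library lay below every unstimulated one, and the lowest was IL-33 stimulated replicate 3. In edgeR its log2 fold change was -1.10 (95% interval -1.59 to -0.62, adjusted p = 0.00483), and it fell by 0.93 without that replicate (standard error 0.11, adjusted p = 5.05e-05). It stayed past the threshold under each of 17 alternatives, with log2 fold changes between -1.47 and -0.93 and adjusted p between 1.45e-06 and 0.0158.

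In Blimp-1-deficient ILC2s Il9r was again the lower of the groups, at 70.2, 66.1 and 67.7 CPM where Controls had 95.4, 75.5 and 105.7 CPM. The groups did not overlap, but Control replicate 2 lay only just above the highest Blimp-1-deficient library. The log2 fold change was -0.45 (standard error 0.13, adjusted p = 0.241) with all libraries, and without Control replicate 2 Il9r fell by 0.55 (standard error 0.06, adjusted p = 0.00318). Adjusted p ranged from 0.00299 to 0.980 over 16 alternatives, of which 2 passed. On TPM, where Control replicate 2 has 93.9% of its total in the 7 loci, the sign turned to 1.15 (limma on log2(TPM + 1)). In the same fit the median gene had 1.28, and Il9r stood at -0.14 relative to it.

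The common gamma chain, the partner of the IL-9 receptor chain, did not fall with it. Il2rg rose after IL-33 from 329 ± 27.9 to 435 ± 36.2 CPM (log2 fold change 0.40, adjusted p = 0.0103), and by 0.44 without replicate 3. This call was lost with no filter and with both limma fits, where 0 of the common gamma chain receptor chains were called higher. Within a library, the TPM of Il2rg was 6.61 ± 1.39 times that of Il9r in unstimulated ILC2s and 19.4 ± 5.37 times after IL-33 (SD, n = 4), with the highest value, 27.2, in IL-33 stimulated replicate 3. It was 4.37 ± 0.610 times in Controls and 7.94 ± 0.277 times in Blimp-1-deficient ILC2s (SD, n = 3). The ratios of the groups did not overlap in either experiment, and they are given as a description without a test.

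The kinases did not pass the test in either comparison with all libraries. Jak1 (chromosome 4, 101152367 to 101265282, minus strand), the kinase of the alpha chain, had 658, 656, 621 and 634 CPM in unstimulated ILC2s and 585, 637, 484 and 655 CPM after IL-33. The groups overlapped, and the log2 fold change was -0.12 (95% interval -0.35 to 0.11, adjusted p = 0.377). With library size as the only scaling Jak1 was called lower (adjusted p = 0.0331), as 23.9% of all genes were, and limma on log2(TPM + 1) also called it lower (adjusted p = 0.0264), with 30% of all genes, and its adjusted p over 17 alternatives ran from 0.0264 to 0.614. Jak1 stood at 439, 349 and 432 CPM in Controls and at 429, 435 and 415 CPM without Blimp-1 (log2 fold change 0.07, 95% interval -0.24 to 0.37, adjusted p = 0.897). Without Control replicate 2 the interval was -0.17 to 0.12.

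Jak3 (chromosome 8, 71676296 to 71690575, plus strand), the kinase of the common gamma chain, had 273, 304, 271 and 362 CPM in unstimulated ILC2s and 316, 286, 130.02 and 260.2 CPM after IL-33. The low value is again IL-33 stimulated replicate 3. The log2 fold change was -0.29 (95% interval -0.87 to 0.30, adjusted p = 0.405), and -0.08 without that replicate (adjusted p = 0.571). Controls had 226, 249 and 273 CPM of Jak3, and Blimp-1-deficient ILC2s had 252, 249.7 and 231 CPM, again with overlap (log2 fold change -0.03, 95% interval -0.29 to 0.23, adjusted p = 0.960). Of the annotated stretches of 75 bases in Jak3, 6.01% also belong to Insl3, which overlaps it on the same strand, so that reads there could have been counted for either gene.

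**Figure D2:**
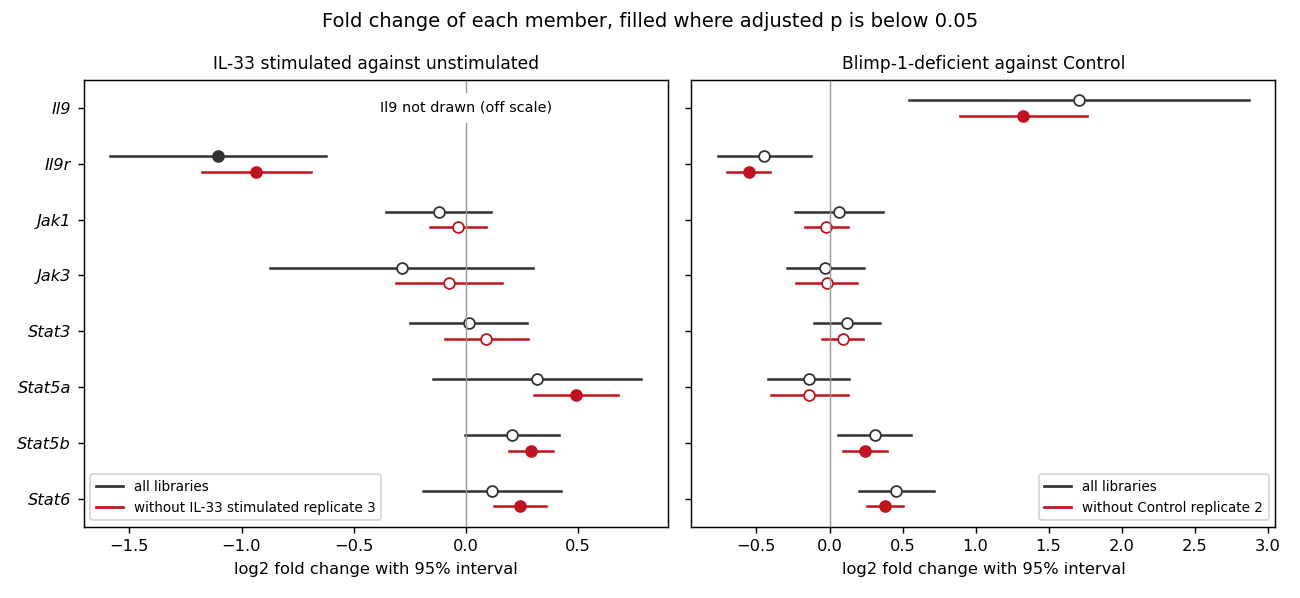
Log2 fold change of each gene with its 95% interval from edgeR, with all libraries (black) and without the library that stood apart (red), filled where the adjusted p was below 0.05. With all libraries only Il9r is filled on the left, where Il9 (adjusted p = 1.63e-06) is off the scale, and none is filled on the right. Without those libraries Il9r, Stat5a, Stat5b and Stat6 are filled on the left and Il9, Il9r, Stat5b and Stat6 on the right.

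Of the STAT genes, Stat5a and Stat5b encode the near-identical STAT5 proteins, and together with Stat3 they lie side by side on chromosome 11. Stat5b had 88.1, 87.1, 88.2 and 90.8 CPM in unstimulated ILC2s and 106.5, 109.3, 83.6 and 108.5 CPM after IL-33. All stimulated libraries but replicate 3 lay above all unstimulated ones. The log2 fold change was 0.20 (standard error 0.09, adjusted p = 0.120) and without that replicate Stat5b rose by 0.29 (standard error 0.04, adjusted p = 0.000319). Stat5b also passed the threshold in DESeq2 (adjusted p = 0.0490), with voom and sample weights (adjusted p = 0.000125) and when unstimulated replicate 1, 2 or 4 was left out (adjusted p = 0.0267, 0.0357 and 0.0292), but not under the other scalings. Its adjusted p lay between 0.000125 and 0.710 over 17 alternatives, and on TPM its sign turned.

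Stat5a had 44.4, 48.4, 40.2 and 52.0 CPM in unstimulated ILC2s and 62.4, 68.1, 35.2 and 64.5 CPM after IL-33, where replicate 3 was below every unstimulated library and the other three were above all of them. With all libraries the log2 fold change was 0.32 (95% interval -0.15 to 0.78, adjusted p = 0.250). Without replicate 3 Stat5a rose by 0.49 (standard error 0.08, adjusted p = 0.000699). Of the annotated 75-base stretches, 5.12% of those in Stat5a and 6.99% of those in Stat5b are shared between the pair, so that a small part of their reads could be counted for either.

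In the Blimp-1 comparison neither of the pair passed with all libraries. Stat5b stood at 93.2, 77.2 and 91.1 CPM in Controls and at 112.5, 110.0 and 102.3 CPM without Blimp-1, with no overlap (log2 fold change 0.31, 95% interval 0.06 to 0.56, adjusted p = 0.303). Without Control replicate 2 Stat5b was just past the threshold (log2 fold change 0.24, adjusted p = 0.0498), and in no other of the 16 alternatives. Stat5a stood at 46.2, 43.1 and 41.3 CPM in Controls and at 42.2, 42.3 and 34.0 CPM without Blimp-1, where the groups overlapped (log2 fold change -0.14, 95% interval -0.42 to 0.14, adjusted p = 0.709). The TPM of Stat5b relative to Stat5a was 2.60, 2.31 and 2.84 in Controls and 3.44, 3.35 and 3.88 in Blimp-1-deficient ILC2s. It was 2.49 ± 0.260 in unstimulated and 2.37 ± 0.463 in stimulated ILC2s, where replicate 3 had 3.06 and the others 2.07 to 2.20.

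Stat6 (ENSMUSG00000002147.18) had 144.9, 153.1, 151.9 and 156.0 CPM in unstimulated ILC2s and 174.7, 174.0, 119.3 and 188.5 CPM after IL-33. Replicate 3 was the lowest of the 8 libraries and the other stimulated libraries were the highest. The log2 fold change was 0.12 (95% interval -0.19 to 0.42, adjusted p = 0.519), and without that replicate Stat6 rose by 0.24 (standard error 0.05, adjusted p = 0.00270). At 72 h Controls had 96.9, 79.4 and 98.4 CPM of Stat6, and Blimp-1-deficient ILC2s had 124.2, 125.8 and 128.4 CPM. The groups lay well apart relative to their spread, with a log2 fold change of 0.46 (95% interval 0.20 to 0.71, unadjusted p = 0.00435, adjusted p = 0.142 in edgeR). Without Control replicate 2 Stat6 rose by 0.38 (standard error 0.05, adjusted p = 0.00530), and the range over 16 alternatives was 0.00530 to 0.868.

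Stat3 did not pass in either comparison. It had 352, 313, 311 and 360.3 CPM in unstimulated and 387, 365, 279 and 315 CPM in stimulated ILC2s, with overlapping groups (log2 fold change 0.01, 95% interval -0.25 to 0.27, adjusted p = 0.947). At 72 h Controls had 242, 226 and 250.5 CPM of Stat3, and Blimp-1-deficient ILC2s had 266, 260.0 and 255 CPM. These groups did not overlap, yet the difference was small (log2 fold change 0.12, 95% interval -0.10 to 0.34, adjusted p = 0.695), and it did not pass without Control replicate 2 either (adjusted p = 0.345).

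Counted over the members, IL-33 against unstimulated called 1 of 8 higher (Il9) and 1 lower (Il9r), where edgeR called 16.2% of the 15466 genes tested higher and 16.1% lower. When replicate 3 of the stimulated libraries was left out, 4 members were called higher (Il9, Stat5a, Stat5b and Stat6) and Il9r lower, where 27.5% of all genes were called higher and 29.7% lower. After IL-33 the groups did not overlap for 2 of 8 members, against 37.9% of all genes, and for 5 of 8 without that replicate, against 58.7%. DESeq2 called 2 members higher (Il9 and Stat5b) and 1 lower, where 19.4% and 18.7% of all genes were called, and voom with sample weights called 4 higher, where 29.5% of all genes were. The median log2 fold change was 0.06 over the members and 0.06 over all genes tested. Blimp-1-deficient against Control called 0 of 8 members in edgeR, where 0.45% of the 17335 genes were called higher and 0.306% lower. At an unadjusted p below 0.05 there were 4 members (Il9, Il9r, Stat5b and Stat6), where 11.9% of all genes had one. DESeq2 called Il9 and Stat6 higher, where it called 3.22% of all genes higher and 3.19% lower. Voom with sample weights called Il9 and Stat6 higher and Il9r lower, with backgrounds of 7.47% and 5.34%. Without Control replicate 2, edgeR called 3 members higher and 1 lower, where 8.25% and 5.72% of all genes were called. The groups did not overlap for 5 of 8 members (Il9, Il9r, Stat3, Stat5b and Stat6), against 22.6% of all genes, or 50.5% without Control replicate 2.

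Per transcript length, Jak1 had the highest and Stat5a the lowest median of the 7 members other than Il9 in each group, while Il9r and Stat5b, and Stat3 and Stat6, changed places between groups. In unstimulated ILC2s the TPM ran from 299.5 to 318 for Jak1, 168 to 240.5 for Jak3, 108 to 126 for Stat6, 115 to 134 for Stat3, 58.0 to 85.6 for Il9r, 52.3 to 58.2 for Stat5b and 19.8 to 25.9 for Stat5a. Stat6 and Stat3 overlapped, as did Il9r and Stat5b at the edge of their ranges, and the other neighbours in this order did not. Il9 was at 0 TPM in all but 1 of these libraries.

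After IL-33 Il9 stood far above all others, and Jak1 (175 to 250.2 TPM) stayed above Jak3 (63.6 to 171 TPM), whose range overlapped those of Stat6 (70.9 to 115 TPM) and Stat3 (76.8 to 118 TPM). Il9r had dropped from above Stat5b to 16.0 to 33.1 TPM, below the 39.5 to 56.0 TPM of Stat5b and overlapping Stat5a at 12.9 to 27.1 TPM. In Controls without replicate 2, Il9r (72.3 and 83.5 TPM) was again above Stat5b (63.1 and 64.3 TPM). In Blimp-1-deficient ILC2s it was below, at 51.9 to 60.8 TPM against 72.1 to 87.0 TPM for Stat5b.

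**Figure D3:**
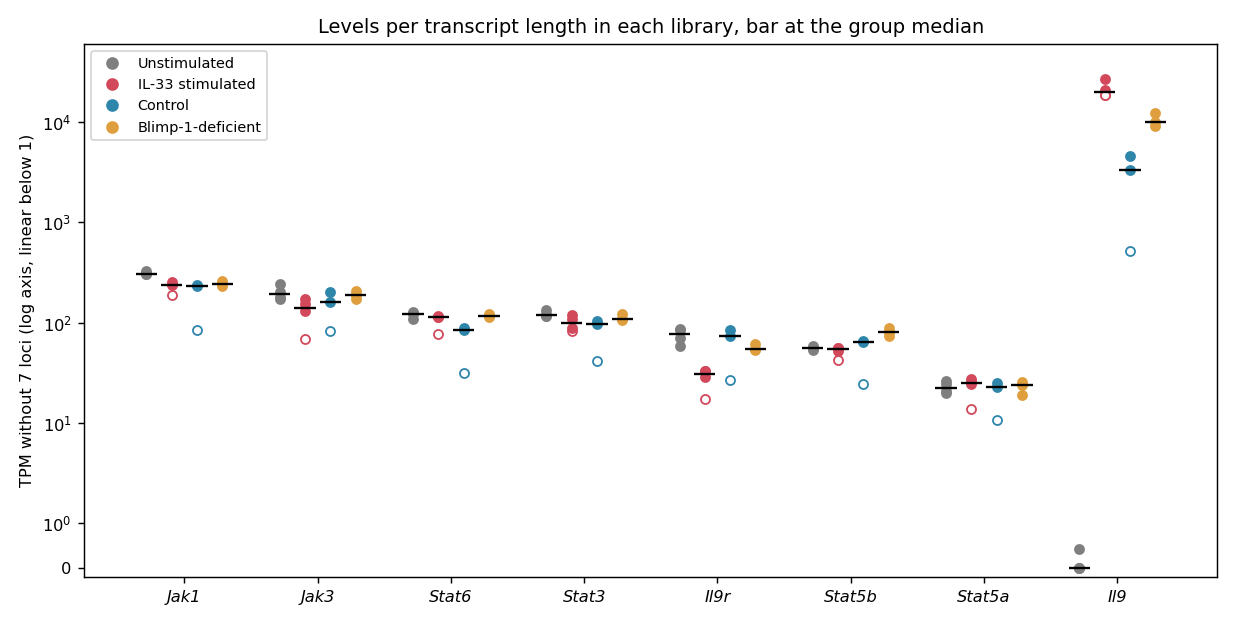
TPM of each gene in every library, after the 7 loci were left out and the rest rescaled to the same total, on a log axis that is linear below 1. Open circles are IL-33 stimulated replicate 3 and Control replicate 2, and bars are group medians. Il9 spans the widest range, with 0 in 3 unstimulated libraries. On this scale Il9r and Jak1 are lower in each library after IL-33 than in each before it. Jak1 did not pass in edgeR on counts (adjusted p = 0.377).

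**Figure D4:**
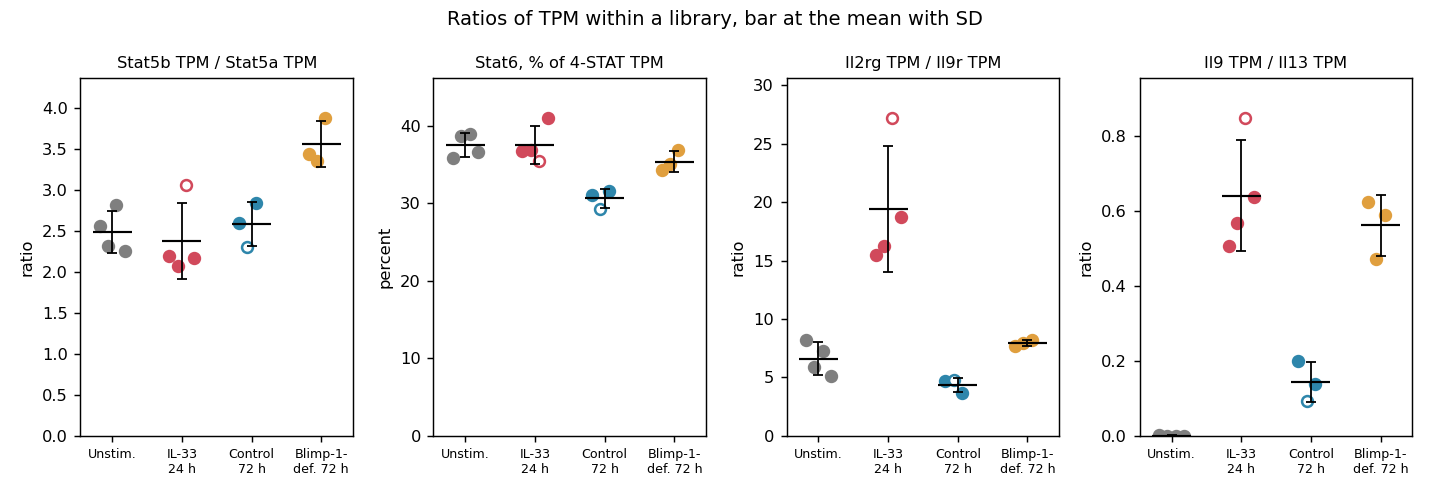
Ratios of TPM within each library, with mean and SD, which do not depend on the library total (open circles as before). Stat5b relative to Stat5a, Il2rg relative to Il9r and Il9 relative to Il13 are higher in each Blimp-1-deficient library than in each Control, and the share of Stat6 among the 4 STAT genes is 34.3% to 36.8% against 29.2% to 31.5%.

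Of the other genes of the pathway, those of the kinase and STAT families that are no members number 5, and 1 of them passed after IL-33, where edgeR called 16.2% of all genes higher and 16.1% lower. Jak2, which serves receptors outside the common gamma chain family, rose from 187 ± 3.84 to 541 ± 68.4 CPM (log2 fold change 1.54, adjusted p = 3.06e-05). Without replicate 3, 2 of the 5 were called higher, where 27.5% of all genes were. Among those that did not pass with all libraries, Stat2 had a log2 fold change of -0.32, Stat4 of -0.11 and Tyk2 of 0.16. For Blimp-1 deficiency edgeR called 0 of the 5, 4 of them had an unadjusted p below 0.05 (11.9% of all genes), DESeq2 called 3 higher (3.22% of all genes), and edgeR without Control replicate 2 called 4 higher (8.25% of all genes). Stat2, a STAT of interferon signalling, had 18.9 ± 1.06 against 40.9 ± 9.89 CPM (log2 fold change 1.11, adjusted p = 0.0617).

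Chains of the receptors that use the common gamma chain number 7 in the list. After IL-33 Il2ra, the high-affinity chain for IL-2, rose with Il2rg, from 1687 ± 161 to 2516 ± 494 CPM (log2 fold change 0.58, adjusted p = 0.0271). Il21r (log2 fold change -1.08, adjusted p = 0.00272) and Il7r (-0.47, adjusted p = 0.00731) fell, and the median of the list was 0.35, against 0.06 for all genes, of which 16.2% were called higher and 16.1% lower. The count of 2 higher became 4 without replicate 3 (27.5% of all genes) and 5 with voom (29.5% of all genes), but 1 with library size alone, with the replicate block and without unstimulated replicate 3 or stimulated replicate 1 or 2, and 0 with no filter or limma. Between the genotypes, 0 of 7 passed in edgeR and 5 had an unadjusted p below 0.05, as did 11.9% of all genes. DESeq2 called 2 higher and 2 lower (3.22% and 3.19% of all genes), and so did edgeR without Control replicate 2 (8.25% and 5.72% of all genes). The smallest p were those of Il4ra (412 ± 32.0 against 295 ± 15.9 CPM, log2 fold change -0.49, adjusted p = 0.135) and Il2rg (192 ± 20.1 against 260 ± 7.09 CPM, 0.44, adjusted p = 0.172). Of the ligands of this family in the list, Il4 is given above, and Il2 fell after IL-33 from only 1.43 ± 0.327 to 0.0832 ± 0.0179 CPM (adjusted p = 0.000106). In the Blimp-1 comparison Il2 had 0.0518 ± 0.0481 CPM in Controls and 0.731 ± 0.115 CPM in Blimp-1-deficient ILC2s (log2 fold change 3.30, adjusted p = 0.0541), and rose by 3.21 without Control replicate 2 (adjusted p = 0.00347). Of the 4 ligands tested, edgeR called 1 higher and 1 lower after IL-33 (16.2% and 16.1% of all genes), and 1 and 3 without replicate 3 (27.5% and 29.7% of all genes). Between the genotypes it called 0, with 2 at an unadjusted p below 0.05 (11.9% of all genes), while DESeq2 called 1 higher (3.22% of all genes), as did edgeR without Control replicate 2 (8.25% of all genes).

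Known STAT5 target genes were called higher in 8 of 16 and lower in 3 of 16 after IL-33, where edgeR called 16.2% of all genes higher and 16.1% lower. Without replicate 3 these were 9 and 4, where 27.5% and 29.7% of all genes were called. The largest rises were those of the survival kinases Pim2 (25.1 ± 1.93 to 145.6 ± 18.8 CPM, log2 fold change 2.54, adjusted p = 6.55e-06) and Pim3 (1.50, adjusted p = 0.000683), of the growth regulator Myc (1.65, adjusted p = 7.46e-05) and of the cytokine Osm (1.25, adjusted p = 0.000701). The anti-apoptotic Bcl2 (log2 fold change -0.93, adjusted p = 0.000158) and Mcl1 (-0.33, adjusted p = 0.0184) and the inhibitor Socs2 (-0.83, adjusted p = 0.000150) fell. The classical target Cish changed by 0.26 on this scale without passing (adjusted p = 0.173), and rose by 0.39 without IL-33 stimulated replicate 3 (adjusted p = 9.18e-05). The median was 0.52, against 0.06 for all genes. Many of these genes also answer signals other than STAT5.

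Against Control, edgeR with all libraries called 2 of 16 higher in this list and none in the other lists, where it called 0.45% of all genes higher and 0.306% lower. DESeq2 called 3 higher and 3 lower, where 3.22% and 3.19% of all genes were called, and edgeR without Control replicate 2 called 4 higher and 4 lower, where 8.25% and 5.72% of all genes were called. Pim2 went from 86.1, 59.2 and 85.7 CPM in Controls to 194, 224 and 215 CPM without Blimp-1 (log2 fold change 1.45, adjusted p = 0.0294, and 1.31 without Control replicate 2). Bcl2 went from 62.9, 57.5 and 64.8 CPM in Controls to 128, 148 and 138 CPM without Blimp-1 (log2 fold change 1.16, adjusted p = 0.0122, and 1.12 without Control replicate 2). For both genes the groups did not overlap. Both calls were lost in 9 of 16 alternatives, which were library size alone, both limma fits, the replicate block and leaving out any library other than Control replicate 2. Cish (log2 fold change 0.17, adjusted p = 0.641), Myc (-0.03, adjusted p = 0.953) and Il2ra (-0.64, adjusted p = 0.175) did not pass. Without Control replicate 2 Il2ra was called lower (-0.69, adjusted p = 0.00641). The median was 0.17 against -0.02 for all genes.

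Of 12 STAT3 target genes, edgeR called 6 higher after IL-33, where 16.2% of all genes were called higher, and the other 6 did not pass. It called 7 higher and 2 lower without replicate 3, where 27.5% and 29.7% were. DESeq2 called 6 higher and 1 lower, where 19.4% and 18.7% of all genes were called. The largest rises with at least 5 CPM were Vegfa, an angiogenic factor (5.09 ± 0.726 to 22.8 ± 12.3 CPM, log2 fold change 2.16, adjusted p = 0.00232), the AP-1 genes Junb (1.95, adjusted p = 0.000276) and Batf (1.27, adjusted p = 0.000248), and the adhesion molecule Icam1 (31.6 ± 3.23 to 71.6 ± 14.3 CPM, adjusted p = 0.000843). The median was 0.64. Socs3, the inhibitor induced by STAT3, did not pass (log2 fold change -0.52, adjusted p = 0.243). At 72 h edgeR called 0 of 12, with 6 at an unadjusted p below 0.05 (11.9% of all genes). DESeq2 called 1 higher and 2 lower (3.22% and 3.19% of all genes), and edgeR without Control replicate 2 called 5 higher and 2 lower (8.25% and 5.72% of all genes). The smallest p were those of Socs3 (167 ± 20.7 against 89.3 ± 12.9 CPM, log2 fold change -0.91, adjusted p = 0.0561) and Vegfa (12.1 ± 2.70 against 20.3 ± 2.35 CPM, 0.76, adjusted p = 0.183), with a median of 0.29.

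Of the 9 STAT6 target genes 7 were tested. After IL-33, 2 fell, among them Gata3, the lineage factor (log2 fold change -0.69, adjusted p = 0.00273), and 1 gene below 5 CPM, Ccl17, rose, where 16.1% of all genes fell and 16.2% rose. Without replicate 3, 2 were called lower and 2 higher, where 29.7% and 27.5% of all genes were. In Blimp-1-deficient against Control cells, edgeR called 0 of 7, and 3 had an unadjusted p below 0.05 (11.9% of all genes). DESeq2 called 2 lower (3.19% of all genes), and edgeR without Control replicate 2 called 1 higher and 2 lower (8.25% and 5.72% of all genes). The smallest p was that of Il4ra, given above.

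Feedback inhibitors of the pathway, 17 genes of the SOCS, PTPN, PIAS and SH2B families, held 5 genes called lower and 2 called higher after IL-33, where 16.1% and 16.2% of all genes were, and 6 and 3 without replicate 3, where 29.7% and 27.5% were. Socs5 (57.1 ± 1.81 to 22.7 ± 6.09 CPM, log2 fold change -1.34, adjusted p = 0.000696), Pias3 (-0.80, adjusted p = 0.00677) and Sh2b3 (-0.76, adjusted p = 0.00758) fell with Socs2 and, as the smallest, Socs4. Pias4 (0.52, adjusted p = 0.0134) and Socs7 (0.41, adjusted p = 0.0338) rose, and the median was -0.17. Without Blimp-1, 0 of 17 passed in edgeR and 5 had an unadjusted p below 0.05 (11.9% of all genes). DESeq2 called 1 higher and 1 lower (3.22% and 3.19% of all genes), and edgeR without Control replicate 2 called 4 higher and 4 lower (8.25% and 5.72% of all genes). The smallest p were those of Socs3, given above, and Sh2b3 (42.1 ± 6.17 against 62.6 ± 1.56 CPM, log2 fold change 0.58, adjusted p = 0.109).

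Regulators known to act on Il9 in T helper cells were called higher in 5 of 18 and lower in 7 after IL-33, where 16.2% and 16.1% of all genes were, and in 6 and 10 of 19 without replicate 3, where 27.5% and 29.7% were. Irf4, needed for IL-9 in T helper cells, rose from 42.0 ± 11.4 to 225 ± 62.1 CPM (log2 fold change 2.42, adjusted p = 0.000401), and Batf, Bhlhe40 (0.96, adjusted p = 0.000248) and the hypoxia factor Hif1a (0.91, adjusted p = 0.000456) rose too. The calcium-dependent factors Nfatc2 (-1.27, adjusted p = 0.000344) and Nfatc1 (-0.89, adjusted p = 0.000377) fell with Foxo1 (-0.89, adjusted p = 0.00303) and Gata3, and the median was -0.28. Between the genotypes, edgeR called 0 of 19, with 9 at an unadjusted p below 0.05 (11.9% of all genes). DESeq2 called 5 higher (3.22% of all genes), and edgeR without Control replicate 2 called 7 higher and 1 lower (8.25% and 5.72% of all genes). The smallest p were those of Foxo1 (39.5 ± 3.79 against 59.7 ± 1.98 CPM, log2 fold change 0.59, adjusted p = 0.0564) and Bhlhe40 (182 ± 29.0 against 280 ± 20.4 CPM, 0.62, adjusted p = 0.140), with a median of 0.13.

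**Figure D5:**
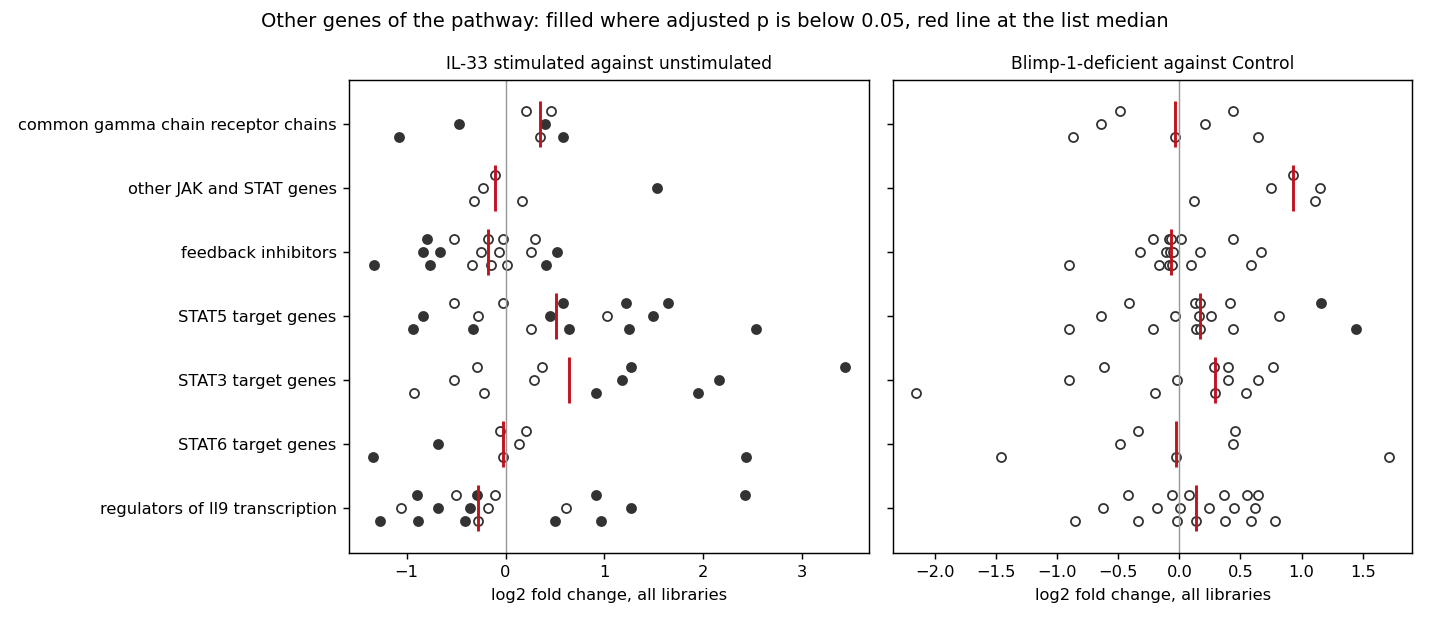
Log2 fold change with all libraries of each tested gene in 7 lists of the pathway (some genes stand in more than 1 list), filled where the adjusted p was below 0.05, with the list median in red. After IL-33 the filled points of the STAT5 and STAT3 targets lie mostly to the right, and in the Blimp-1 experiment the only filled points are Pim2 and Bcl2.

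By position, 8 protein-coding genes lie within 250 kb of Il9, and 5 of them were tested after IL-33. Fbxl21 (log2 fold change 3.00) and Lect2 (5.70) rose and Smad5 fell by 0.74, and without replicate 3 the counts were 2 higher and 2 lower, while no neighbour passed in the Blimp-1 experiment with all libraries and 1, Fbxl21, without Control replicate 2 (0.87, adjusted p = 0.0285). Near Il9r, Sh3pxd2b (1.32) passed with all libraries among 7 tested genes after IL-33, and 2 higher and 2 lower without replicate 3. In the Blimp-1 comparison 0 passed there, and 2 were lower without Control replicate 2. Around Stat5b, Stat5a and Stat3, 19 genes were tested after IL-33. Ghdc (0.61), Mlx (0.54), Nkiras2 (0.45) and Dnajc7 (0.30) rose, and Plekhh3 (-1.77), Cavin1 (-1.07), Retreg3 (-0.97), Naglu (-0.76) and Cnp (-0.72) fell. These 4 and 5 of 19 stand beside 16.2% and 16.1% of all genes, and were 6 and 5 without replicate 3, beside 27.5% and 29.7%. In the Blimp-1 comparison 0 of 20 passed, and 3 were higher and 2 lower without Control replicate 2, beside 8.25% and 5.72% of all genes.

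Across the 14 libraries, normalized together for this purpose, the log2 CPM of 10625 genes was compared with that of Il9 and Il9r. The genes most like Il9 were Tigit (r = 0.989), Gstm1 (0.989), Tfg (0.989), Elmo1 (0.987) and Mgat4a (0.987). Those most like Il9r were Map3k5 (0.973), Ripk3 (0.969), Ptpn22 (0.959), Klhl25 (0.956) and Ldlrad4 (0.954). These are Pearson correlations over libraries that fall into 4 groups of 2 experiments, so that they mostly reflect the group levels, and they carry no p.

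Markers of other cells were read beside these results. The 13 T cell markers summed to 316 to 350 CPM in unstimulated and 92.8 to 152 CPM in stimulated ILC2s, with Cd3e at 4.86 to 9.48 and 1.67 to 5.25 CPM, so that this list fell along with Il9r. It summed to 103 to 110.1 CPM in Controls and 106 to 116 CPM in Blimp-1-deficient ILC2s. The 10 mast cell and basophil markers summed to 8.70 to 20.4 CPM before and 1.56 to 2.97 CPM after IL-33. Before IL-33 Cma1, Ms4a2, Tpsab1 and Tpsb2 were at 0, while Cpa3 had 6.68 to 12.8 CPM and Mcpt8 0.0859 to 2.17 CPM. After it Cpa3 had 0 to 0.0708 CPM and Mcpt8 0 to 0.230 CPM. The list summed to 2.86 to 9.74 CPM in Controls and 3.85 to 5.44 CPM in Blimp-1-deficient ILC2s. The 7 B cell markers summed to 27.5 to 34.0 CPM before and 26.2 to 31.7 CPM after IL-33, and to 22.9 to 27.99 CPM in Controls and 23.4 to 30.1 CPM in Blimp-1-deficient ILC2s. The 10 epithelial and stromal markers summed to 444 to 695 CPM before and 251 to 433 CPM after IL-33. They summed to 469 to 663 CPM in Blimp-1-deficient ILC2s and to 203 to 3574 CPM in Controls, where the highest is Control replicate 2 with Col1a1 at 2171 CPM and Col1a2 at 1337 CPM. The ILC3 markers, 5 of 6 of which are in the table, summed to 15.0 to 25.0 CPM before and 5.52 to 21.4 CPM after IL-33. In the Blimp-1 experiment they did not overlap, at 2.68 to 6.11 CPM in Controls and 12.1 to 27.9 CPM in Blimp-1-deficient ILC2s, and were higher together with Il9. The 10 myeloid markers summed to 84.1 to 191 CPM before and 39.6 to 122 CPM after IL-33, and to 29.1 to 115 and 32.5 to 103 CPM by genotype. The 8 ILC1 and NK cell markers summed to 4.13 to 6.98 CPM before and 2.87 to 7.19 CPM after IL-33, and to 7.13 to 11.2 and 3.15 to 11.1 CPM by genotype. The part of these cells in the levels of the members was not tested.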

How the data were processed

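Bulk RNA-seq of sorted lung ILC2s was analysed in 14 libraries. The authors trimmed the reads, aligned them to GRCm38 with HISAT2 per their methods (the submitters' processing notes list Bowtie2), counted them per gene with Subread without a stated strand setting, and deposited raw counts and TPM for each experiment. Depth is given in the report. A gene at 0 can have up to 3 counts, which is 0.0310 to 0.731 CPM by library, for counting error alone.

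Counts were tested with edgeR 4.0.16 in R 4.3.3 (TMM normalization, filterByExpr, quasi-likelihood test, two-sided, Benjamini-Hochberg adjustment over all genes tested, threshold 0.05). CPM are TMM-normalized within an experiment. P-values set the difference between groups against the spread between these libraries, which may hold cells of more than 1 mouse. Comparisons between genes use TPM. Each test was run on 1 simulated data set per comparison. The simulated libraries had a lower dispersion than these data, and within a group they shared the same expected composition, without a deviating library. The share of false calls in them exceeded the threshold for DESeq2 after IL-33. In the Blimp-1 comparison it did so for edgeR, DESeq2, voom and limma, most for limma and DESeq2. These shares need not hold for the tests of these data. The members and lists were chosen with earlier results of these data known.

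Named genes were the members, Prdm1, the type 2 cytokines, up to 4 rises and 4 falls per list past the threshold with at least 5 CPM (otherwise the 2 smallest p), neighbours within 250 kb past the threshold, and the 5 most correlated genes. Cish, Myc, Socs3, Tyk2, Stat4, Socs4 and some genes under 5 CPM were added after their values were seen. The same holds for Il2ra and Il7r in the Blimp-1 comparison and for Cpa3 and Mcpt8.

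Alternatives were DESeq2 1.42.0, RLE factors, library size alone, no filter, a mean count of at least 50, limma 3.58.1 on log2(TPM + 1) or log2(TPM + 0.1) for genes averaging 1 TPM or more, a replicate block, leaving out each library, the 7 loci left out, and, chosen after seeing the data, voom with sample weights. Coordinates are from GENCODE M21 and promoter windows from RefSeq. Some genes of these lists are not reported here.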

Additional observations from a re-analysis of the deposited data

Results flagged for a closer look

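Stat5b had 83.6 CPM in IL-33 stimulated replicate 3, while the nearest of the other stimulated libraries had 106 CPM. This gap took 0.890 of the range of the group, above Dixon's 95% critical value of 0.829 for 4 libraries. Of 17 groups of 4 libraries tested over the members and Prdm1, this was the only one past it, and chance gives about 1 in 20. The same library had the fewest counts of the experiment, 10470125, and its part in the low value was not tested.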

How the results depend on the processing

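After IL-33, Il9 and Il9r kept their direction and their call under all 17 alternatives. The genes called higher (2508) became 990 and 975 with limma on log2(TPM + 1) and log2(TPM + 0.1) and 4556 with voom, and 1852 to 4328 when 1 library was left out. Those called lower (2484) became 4555, 4373, 4877 and 1820 to 4666. Members called higher (1) became 2 in DESeq2, 4 with voom and 1 to 4 with a library left out. Members called lower (1) became 2 with library size alone and with both limma fits. Signs turned for Stat3 (0.01) to -0.15 with library size alone, -0.012 without a filter, -0.32 and -0.33 with limma and -0.062 to 0.094 with a library left out. They also turned for Stat5a (-0.050 and -0.055 with limma), Stat5b (-0.13 and -0.14) and Stat6 (-0.049 with library size alone, -0.23 and -0.24 with limma). In these fits the median gene stood at -0.10, -0.25 and -0.29, and relative to it Stat5a, Stat5b and Stat6 stayed above 0, with Stat6 lowest at 0.01.

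In the Blimp-1 experiment, genes called higher (78) and lower (53) became 556 and 550 in DESeq2, 149 and 107 with a mean count of at least 50, 0 and 0 or 1 and 0 with limma, 1295 and 926 with voom, and 0 to 1483 and 0 to 1027 with a library left out, the highest without Control replicate 2 and the others at most 7 and 2. Members called higher (0) became 2 in DESeq2, 2 with voom and 0 to 3 with a library left out, and members called lower (0) became 1 with voom and 0 to 1. Il9 passed in DESeq2 (1.72), with voom (1.55) and without Control replicate 2 (1.33, range 1.33 to 2.16). Il9r passed with voom (-0.58) and without Control replicate 2 (-0.55, range -0.55 to -0.33), and its sign turned to 1.15 and 1.33 with limma. Signs turned for Jak1 to -0.0081 with voom and -0.022 to 0.14 with a library left out (the lowest without Control replicate 2), for Jak3 to 0.46 with library size alone, 0.011 without a filter, 1.67 and 1.75 with limma and -0.080 to 0.045 with a library left out, and for Stat5a to 0.35, 1.22 and 1.57 with library size alone and limma. The median gene stood at 0.45, 1.28 and 1.69 in these fits, and relative to it Stat5a lay at -0.10, -0.07 and -0.12. The cause was not tested. Leaving out the 7 loci changed no call among the members.

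The series design puts different B6 mice into the stimulated and the unstimulated group, the genotypes are different mice, and deviations of same-numbered libraries correlated at -0.12, 0.21, 0.31 and 0.17 in the stimulation and at -0.13, -0.16 and 0.14 in the Blimp-1 experiment. With the replicate block the Blimp-1 comparison called 0 genes higher and 0 lower, and the members called after IL-33 were as without it, Il9 and Il9r.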
